A study of Homo sapiens with 4 samples.

Results

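The genes described here encode the subunits of the nuclear RNA polymerases I, II and III. They were chosen by name from the deposited table of RNA synthesis after depletion of IWS1, as every row named *POLR1*, *POLR2* or *POLR3* with a subunit letter, together with the older names *ZNRD1* and *CD3EAP* and the gene *CRCP*. The rule found 30 of 10147 listed genes, and all 30 had a mean above 0. Of these, 5 belong to Pol I only, 2 to both Pol I and Pol III, 4 to all 3 enzymes, 7 to Pol II only and 10 to Pol III only. The remaining 2, *POLR2J3* and *POLR2J4*, are copies of the Pol II gene *POLR2J*. *POLR1F* (older name *TWISTNB*), *POLR2F*, *POLR3F*, *POLR2J2* and *POLR2M* were not analysed here.

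RNA polymerase I makes the large ribosomal RNA precursor, Pol II makes messenger RNA and many non-coding RNAs, and Pol III makes transfer RNA, 5S ribosomal RNA and other short RNAs such as 7SK and U6. Each enzyme has a core of related subunits around an active site formed by its largest and second-largest subunits, a small set of subunits common to the enzymes, a stalk, and, in Pol I and Pol III, further subunits related to the initiation factors of Pol II. All these subunit genes are themselves transcribed by Pol II, on which IWS1 acts as an elongation factor.

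The promoters of 4 members are shown because these genes lie at the ends of the responses described below: *POLR2A* was the member with the highest ratio to the control, and *POLR2L*, *POLR3B* and *POLR1A* were among the 4 with the lowest. The sequences are the 250 bases in front of the annotated start, 5′ to 3′ on the coding strand, from the RefSeq annotation of GRCh38.p14. They lie at chr17:7484116-7484365 on the plus strand for *POLR2A*, chr11:842530-842779 on the minus strand for *POLR2L*, chr12:106357498-106357747 on the plus strand for *POLR3B* and chr2:86105887-86106136 on the minus strand for *POLR1A*. Capitals mark matches on either strand to the GC box, the CCAAT box or the core of an NRF1 site, whose letters are given after the sequences.
POLR2A: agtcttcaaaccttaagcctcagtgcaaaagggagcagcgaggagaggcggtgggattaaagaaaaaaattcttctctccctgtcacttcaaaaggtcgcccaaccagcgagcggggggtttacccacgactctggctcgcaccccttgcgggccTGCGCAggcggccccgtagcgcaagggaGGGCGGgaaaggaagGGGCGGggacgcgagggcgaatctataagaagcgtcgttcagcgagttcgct
POLR2L: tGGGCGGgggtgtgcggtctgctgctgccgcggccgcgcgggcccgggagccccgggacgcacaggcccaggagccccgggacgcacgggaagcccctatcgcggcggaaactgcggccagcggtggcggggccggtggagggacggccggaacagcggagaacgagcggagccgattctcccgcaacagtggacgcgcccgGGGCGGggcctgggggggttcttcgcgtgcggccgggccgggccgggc
POLR3B: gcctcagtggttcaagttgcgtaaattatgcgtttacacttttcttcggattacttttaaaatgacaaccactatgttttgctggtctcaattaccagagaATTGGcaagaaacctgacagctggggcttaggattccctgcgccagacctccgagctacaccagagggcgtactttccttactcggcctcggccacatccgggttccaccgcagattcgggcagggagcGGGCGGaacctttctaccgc
POLR1A: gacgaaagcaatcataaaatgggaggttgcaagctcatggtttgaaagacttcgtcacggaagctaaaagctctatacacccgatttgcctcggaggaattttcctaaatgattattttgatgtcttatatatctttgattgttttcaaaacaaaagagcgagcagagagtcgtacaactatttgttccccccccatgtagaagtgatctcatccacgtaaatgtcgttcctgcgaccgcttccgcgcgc

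A promoter sequence was at hand for 19 of the 30 members and for 8025 of all genes tested. The GC box, searched as GGGCGG on both strands like all motifs here, was found in 14 of the 19 member promoters (73.7%), against 68.8% of all promoters of this length. The letters CCAAT were found in 5 of 19 (26.3%, against 36.1%), CCGGAAG, the core of an ETS site, also in 5 of 19 (26.3%, against 18.1%), and the NRF1 core TGCGCA in 2 of 19 (10.5%, against 12.5%). TATAAA was in 0 of 19, against 5.1% of all promoters, and AAGATGGCG, a YY1 motif, in 0 of 19, against 1.3%. The *POLR1A* window held none of the letters searched, and its GC content of 43.2% was below that of *POLR2L*, 79.2%. In the GENCODE annotation, however, the *POLR1A* gene reaches chr2:86106155, so this window lies inside the gene. The windows of *POLR2B* and *POLR1C* likewise lie inside their GENCODE genes, and some others, such as that of *POLR1B*, lie partly inside. Whether these windows are promoter sequence therefore depends on the annotation. The *ZNRD1* window (30061015 to 30061264) lies inside the gene in RefSeq too (30060062 to 30064907). It is not in front of the start in either annotation, though it is counted among the 19 promoters and the 5 with CCAAT. The median number of CG pairs was 21 in member promoters and 21 in all promoters.

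The libraries were TT-seq libraries of K562, a human chronic myelogenous leukemia line, in which both groups carried the degradation tag at the N terminus of the endogenous IWS1. There were 2 control samples, given the solvent DMSO, and 2 dIWS1 samples, given 500 nM of the ligand dTAG7, all for 1 h. In TT-seq, RNA made while cells take up the uridine analogue 4sU is isolated and sequenced, here after 5 min of labelling at 500 µM. Whether the line is 1 clone is not given in the sources used here.

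The table holds means over library columns, from which the whole reads of each column were recovered for 10136 of 10136 genes with a mean above 0. The same control column entered these means 2 times, so the control counts as 1 sample here, and the spread between controls is unknown. The columns held 29832118 reads in genes for the control, 20684301 for dIWS1 column 1 and 20886697 for dIWS1 column 2. All 8 marker genes of K562 and erythroid cells that were looked for, such as *GATA1*, *TAL1* and *KLF1*, were listed, and of 5 genes of other blood lineages only *PTPRC* was, with 15352 reads in the control. The paper kept genes above an expression cut and left out overlapping genes, so absence does not show that a gene was silent. *IWS1*, whose protein dTAG7 removes, had 3684, 2334 and 2427 reads, which does not measure the loss of the protein.

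Values below are normalized reads, that is reads divided by the column's spike-in size factor, and log2 ratios of dIWS1 over control. Under this scaling nearly all genes were lower, with a median log2 ratio of −0.43 over 10136 genes, −0.47 in column 1 and −0.37 in column 2. Each member is therefore also given relative to the median gene. The tests come from a limma voom fit over all genes, with Benjamini-Hochberg adjustment over all of them and a threshold of 0.05, in which the single control column is taken to vary like the dIWS1 columns. The spread was pooled over all genes by depth, so a standard error from this fit does not show how far apart a gene's own columns lie. In bulk libraries, fewer labelled cells and less new RNA per cell cannot be told apart.

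RNA synthesis of most polymerase subunit genes was lower after loss of IWS1, to about the extent seen over all genes. Of the 30 members, 18 (60%) were called lower, against 64.5% of all genes tested, and 0 were called higher, against 0.109% of all genes (limma voom; 0 members were also above the control at an unadjusted p under 0.05). Both dIWS1 columns lay below the control column in 28 members (93.3%), against 92.1% of all genes. The median log2 ratio of the members was −0.38 (−0.46 in column 1 and −0.30 in column 2), with quartiles of −0.55 and −0.25. The range ran from −0.73 in *POLR2L* to 0.10 in *POLR2A*.

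By enzyme, the groups overlapped widely. Of the 5 Pol I genes 2 were called lower (median −0.31, range −0.60 to −0.22), of the 7 Pol II genes 4 (median −0.34, range −0.57 to 0.10) and of the 10 Pol III genes 5 (median −0.32, range −0.69 to −0.00). The shared subunits had lower medians. Both genes common to Pol I and Pol III were called lower (−0.60 and −0.56), and of the 4 genes common to all enzymes 3 were (median −0.51, range −0.73 to −0.07). With 2 to 10 genes a group and ranges that overlap, no difference between the enzymes was tested.

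**Figure D1:**
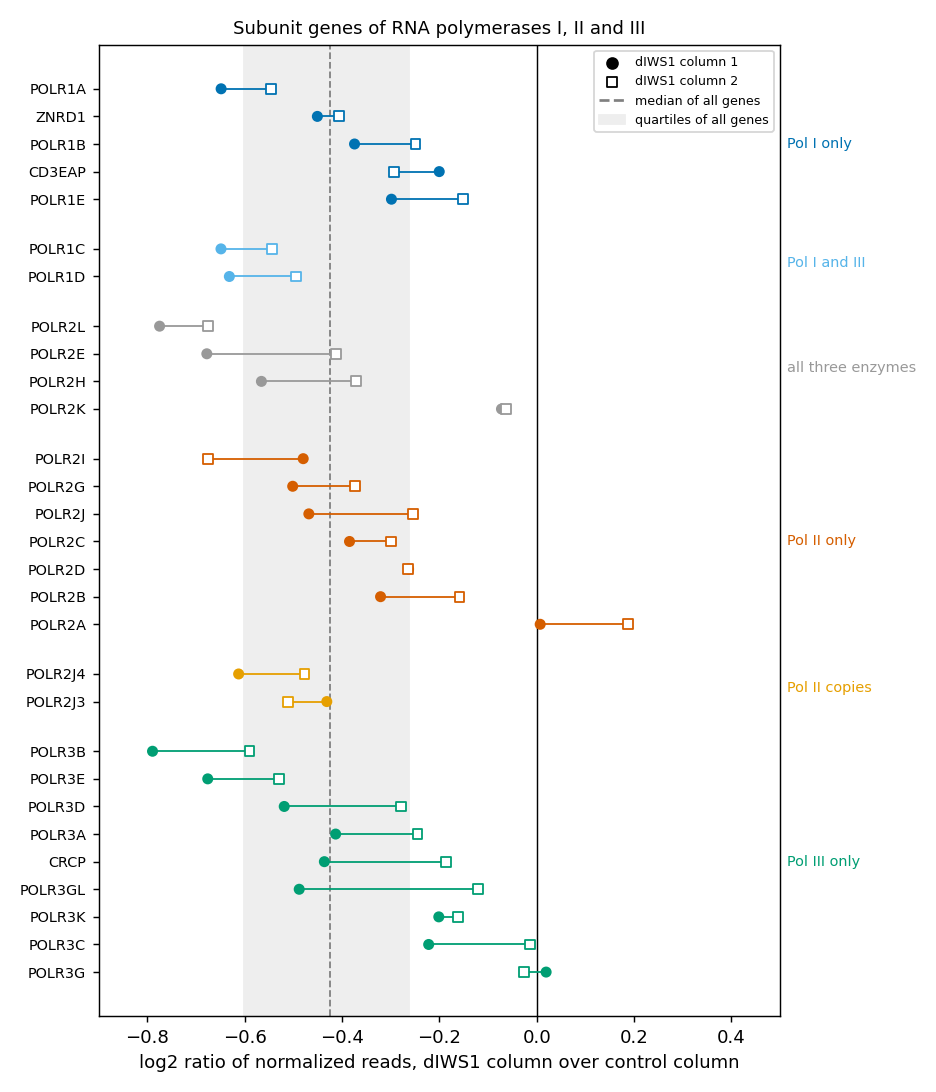
Log2 ratio of normalized reads over the control column for 29 of the 30 members in dIWS1 column 1 (filled circles) and column 2 (open squares), grouped by enzyme, with the median (dashed line, −0.43) and quartiles (grey band, −0.60 to −0.26) of all genes tested. All members shown but *POLR2A* and *POLR3G* lie below 0 in both columns.

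The largest subunits, which carry the catalytic centre, covered most of the range of the members. *POLR2A* (chromosome 17, 7484366 to 7514616, 30 exons) encodes the largest subunit of Pol II, whose C-terminal domain of repeated heptapeptides recruits processing and elongation factors. Its normalized reads were 3796 in the control, 3815 in dIWS1 column 1 and 4325 in column 2, so that neither dIWS1 column was below the control. Its log2 ratio was 0.10 (standard error 0.15, 95% interval −0.20 to 0.39, adjusted p = 0.552), at the 98.4th percentile of all genes. *POLR1A* (chromosome 2, 86020216 to 86105886, 34 exons), the largest subunit of Pol I, had 5878 normalized reads in the control and 3749 and 4024 in the dIWS1 columns. Both columns were well below the control, and the log2 ratio was −0.60 (standard error 0.15, adjusted p = 0.000283). *POLR3A* (chromosome 10, 77975149 to 78029515, 31 exons), the largest subunit of Pol III, had 3762, 2825 and 3175 normalized reads. It was called lower with a ratio of −0.33 (standard error 0.15, adjusted p = 0.0451), close to the threshold.

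The second-largest subunits complete the active site and showed another order. *POLR3B* of Pol III (chromosome 12, 106357748 to 106510198) is the longest member, at 152451 bp. It had 6497 normalized reads in the control, 3759 in column 1 and 4316 in column 2, both far below the control. Its log2 ratio of −0.69 (standard error 0.15, adjusted p = 2.78e-05) was the second lowest of the 30. *POLR1B* of Pol I had 2276, 1756 and 1915 normalized reads and a ratio of −0.31 (adjusted p = 0.0503), just short of the threshold. *POLR2B* of Pol II, the most deeply covered member with 7492 control reads, had 7421, 5941 and 6649 normalized reads and a ratio of −0.24 (standard error 0.15, adjusted p = 0.139). In all 3 of these genes both dIWS1 columns lay below the control.

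The remaining Pol I genes were less deeply covered. *POLR1E* and *CD3EAP*, the older name of *POLR1G*, encode a pair of subunits related to the initiation factor TFIIF. *POLR1E* had 1589 normalized reads in the control and 1292 and 1431 in the dIWS1 columns, a ratio of −0.22 (adjusted p = 0.144). *CD3EAP* had 96.1, 83.6 and 78.3, a ratio of −0.24 with a wide interval from −0.65 to 0.16 (adjusted p = 0.28). Neither passed the test. *ZNRD1*, the older name of *POLR1H*, encodes a zinc-ribbon subunit involved in RNA cleavage. It had 151.5, 110.8 and 114.2 normalized reads and was called lower at −0.43 (adjusted p = 0.0274), level with the median gene.

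The subunits shared between enzymes were mostly called lower. *POLR1C* and *POLR1D* form the assembly platform of Pol I and Pol III. *POLR1C* had 972.7 normalized reads in the control, 620.2 in column 1 and 666.7 in column 2, a ratio of −0.60 (adjusted p = 3.85e-05). *POLR1D* had 1869, 1206 and 1327, a ratio of −0.56 (adjusted p = 0.000304). For both genes the dIWS1 columns were closer to each other than to the control. Among subunits of all 3 enzymes, *POLR2L* (chromosome 11, 839721 to 842529, 2 exons) had the lowest ratio of all members. Its normalized reads were 425.9, 248.7 and 266.5, its ratio −0.73 (standard error 0.14, adjusted p = 1.21e-06). *POLR2E* (755.7, 472.2 and 567.7) and *POLR2H* (247.6, 167.1 and 191.4) were called lower at −0.55 and −0.47. *POLR2K* was the exception, with 261.5, 248.7 and 250.2 normalized reads. Its ratio was −0.07 (standard error 0.14, 95% interval −0.35 to 0.22, adjusted p = 0.671), and its columns differed by less than 0.01 on the log2 scale.

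The smaller Pol II subunits lay around the median gene. *POLR2G* and *POLR2D* form the stalk. *POLR2G* had 343.7, 242.6 and 265.4 normalized reads and was called lower at −0.44 (adjusted p = 0.00387), while *POLR2D*, with 977.6, 814.5 and 813.5, had a ratio of −0.26 and did not pass (adjusted p = 0.0673). *POLR2C* and *POLR2J* form the assembly pair of Pol II, as *POLR1C* and *POLR1D* do in the other enzymes. *POLR2C* had 518.0, 396.7 and 420.9 normalized reads and was called lower at −0.34 (adjusted p = 0.0155). *POLR2I*, a zinc-ribbon subunit, had the fewest reads of all members (81 in the control, 57 in column 1 and 46 in column 2). It was called lower at −0.57 (adjusted p = 0.0237) with the largest standard error, 0.23. With a minimum mean of 100 normalized reads *POLR2I* was not tested.

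*POLR2J* was called lower at −0.36 (adjusted p = 0.031), *POLR2J3* at −0.47 (adjusted p = 0.00241) and *POLR2J4*, a transcribed pseudogene in RefSeq, at −0.54 (adjusted p = 0.000608). These copies on chromosome 7 share sequence, and only unique alignments were counted. Of all 38-base words in the *POLR2J* span (102473128 to 102478922), 69.6% also occur in the span of *POLR2J2*, *POLR2J3* or *POLR2J4*. For *POLR2J3* (102566966 to 102572583) this share was 95.2%, and for the longer *POLR2J4* (43940895 to 44019194) it was 5.1%. Reads that matched several copies equally well were thus left out. How far the counts of *POLR2J* and *POLR2J3* represent their whole spans is therefore uncertain. For *POLR2J4* the words were searched only in the other copies, so matches elsewhere in the genome were not counted. In GENCODE 7 other genes overlap *POLR2J4* on the same strand, so its count is uncertain too.

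The Pol III subunits outside the core ran from −0.60 in *POLR3E* to −0.00 in *POLR3G*. *POLR3C* and *POLR3G* belong to a trimer that acts in initiation, and *POLR3GL* is the alternative to *POLR3G*. *POLR3G* (chromosome 5, 90473929 to 90514557, 8 exons) had 1397 normalized reads in the control, 1416 in column 1 and 1371 in column 2. The columns lay on either side of the control, and the ratio was −0.00 (standard error 0.14, 95% interval −0.28 to 0.27, adjusted p = 0.981), at the 96.3rd percentile of all genes. *POLR3GL* had far fewer normalized reads, 231.8, 165.1 and 213.2. Its dIWS1 columns differed more than in any other member (log2 ratios of −0.49 and −0.12), and its ratio of −0.31 did not pass (adjusted p = 0.0639). *POLR3C* had 1405, 1204 and 1391 normalized reads and a ratio of −0.12 (adjusted p = 0.441), with column 2 almost level with the control.

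*POLR3D* and *POLR3E* form a pair related to TFIIF, and both were called lower. *POLR3E* (chromosome 16, 22297409 to 22335096) had 3750, 2347 and 2598 normalized reads, a ratio of −0.60 (adjusted p = 0.000245). *POLR3D* had 321.9, 224.5 and 265.4, a ratio of −0.40 (adjusted p = 0.00903). *CRCP* encodes a subunit of the Pol III stalk. With 5860, 4330 and 5153 normalized reads, it had a ratio of −0.31 that did not pass (adjusted p = 0.0573). *POLR3K*, a subunit involved in RNA cleavage, had 473.5, 411.8 and 423.1 normalized reads and a ratio of −0.18 (adjusted p = 0.198).

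Levels of different genes were compared per kb of gene span, using the RefSeq spans of GRCh38.p14. The control levels of the members ran from 16.4 normalized reads per kb in *POLR3GL* to 328.5 in *POLR2J3*, with a median of 66.3, against 40.7 for all genes. The value of *POLR2J3* leaves out reads that matched its copies equally well. For *POLR2J3*, *POLR2L* and *POLR1D* the GENCODE span is over 1.5 times the RefSeq span, so that their levels per kb depend on the annotation. For the 27 others the spans agree within 1.5 times. Among these 27, *CRCP* (147.4), *POLR2B* (142.0) and *POLR2A* (125.5) had the highest control levels, and *POLR3GL* (16.4) and *POLR1C* (21.5) the lowest. On the RefSeq spans the largest subunits of Pol I and Pol III had nearly equal levels, 68.6 per kb for *POLR1A* and 69.2 for *POLR3A*. The GENCODE span is 1.405 times the RefSeq span for *POLR3A* and 1.003 times for *POLR1A*, so this near equality depends on the annotation. After depletion *POLR2A* stood at 134.5 per kb, above *POLR2B* at 120.4 and *CRCP* at 119.3. *POLR3G* was at 34.4 per kb in the control and 34.3 in dIWS1, against 16.4 and 13.4 for *POLR3GL*. With 1 control column, none of these differences between genes was tested.

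**Figure D2:**
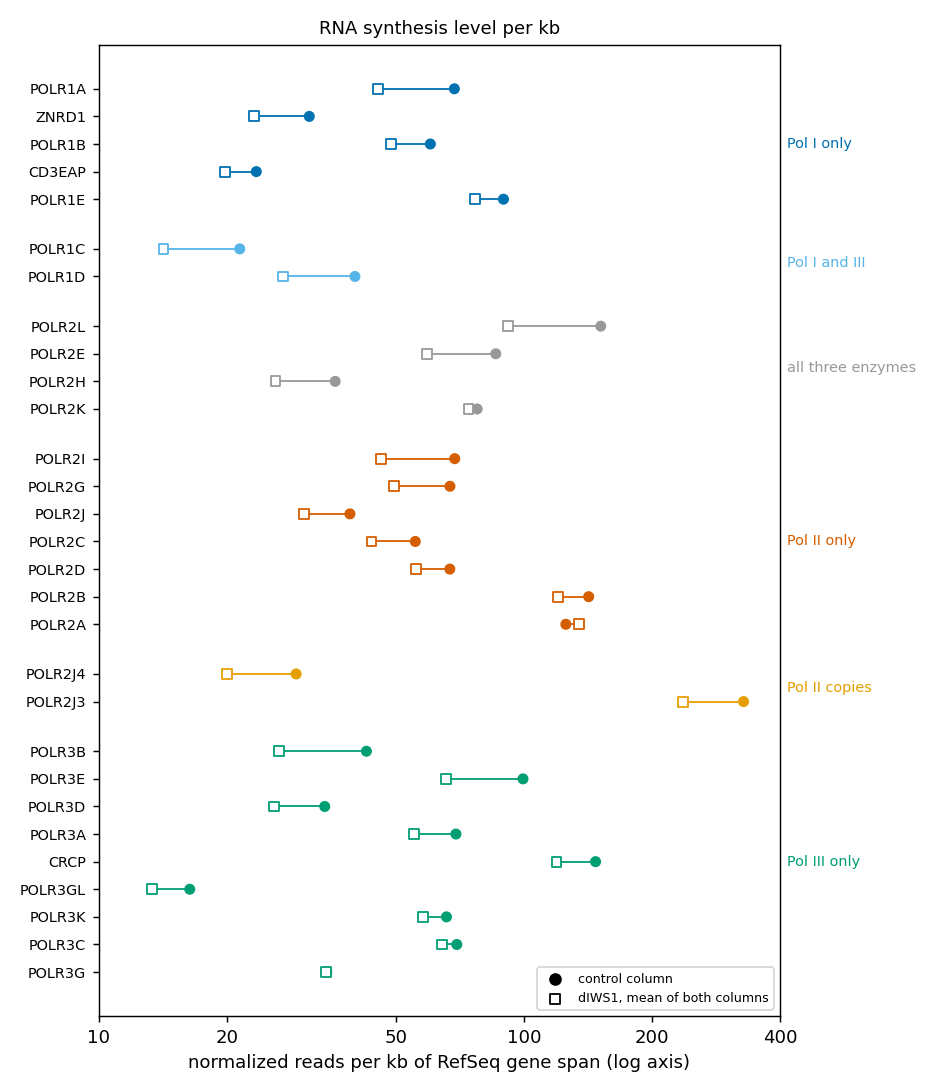
Normalized reads per kb of RefSeq gene span (log axis) for 29 members in the control column (filled circles) and as the mean of both dIWS1 columns (open squares), grouped by enzyme. *POLR2A* is the only member shown whose dIWS1 value lies to the right of its control value, at 134.5 against 125.5 per kb.

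Relative to the median gene, the members divided almost evenly, 16 above and 14 below. Of them 2 were called higher, *POLR2A* at 0.52 (adjusted p = 0.0129) and *POLR3G* at 0.42 (adjusted p = 0.0362), against 3.01% of all genes. None was called lower (0 of 30, against 4.78% of all genes), with 1, *POLR2L*, below the median gene at an unadjusted p under 0.05 (limma voom). Both called genes were above the median gene in each dIWS1 column, *POLR2A* by 0.48 and 0.56 and *POLR3G* by 0.49 and 0.35. The call of *POLR3G* was lost in a limma-trend fit with a pseudocount of 0.5, and both calls were lost in a limma-trend fit with a pseudocount of 5 and at a threshold of 0.01. Further members lay above it without passing the test, *POLR2K* at 0.36 (adjusted p = 0.109) and *POLR3C* at 0.31 (adjusted p = 0.161). At the other end *POLR2L* lay at −0.30 (adjusted p = 0.162) and *POLR3B* at −0.26 (adjusted p = 0.29).

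The direction of many members depends on the choice of scale. *POLR2L* and *POLR3B* were below 0 and *POLR2A* above 0 on every scale used here. Of all genes called, 99.8% were lower under the spike-in scaling, 61.3% relative to the median gene, and 41.9% when the columns were scaled by their total reads in genes. The spike-in scaling also set the dIWS1 columns apart from each other, with a median log2 difference of −0.12 between column 1 and column 2 over the 8900 genes with a mean of at least 100. This offset enters the standard errors above, which were between 0.13 and 0.23 for the members. With the columns scaled by total reads, with the test against the median gene added after the data were seen, the standard errors were between 0.05 and 0.24. Relative to the median gene 4 members were then called higher (*POLR2A*, *POLR3G*, *POLR3C* and *POLR2B*), against 12.6% of all genes, and 1 lower (*POLR3B*), against 11.5%. The adjusted p was 0.0044 for *POLR2A*, 0.0157 for *POLR3G* and 0.0199 for *POLR3B*.

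**Figure D3:**
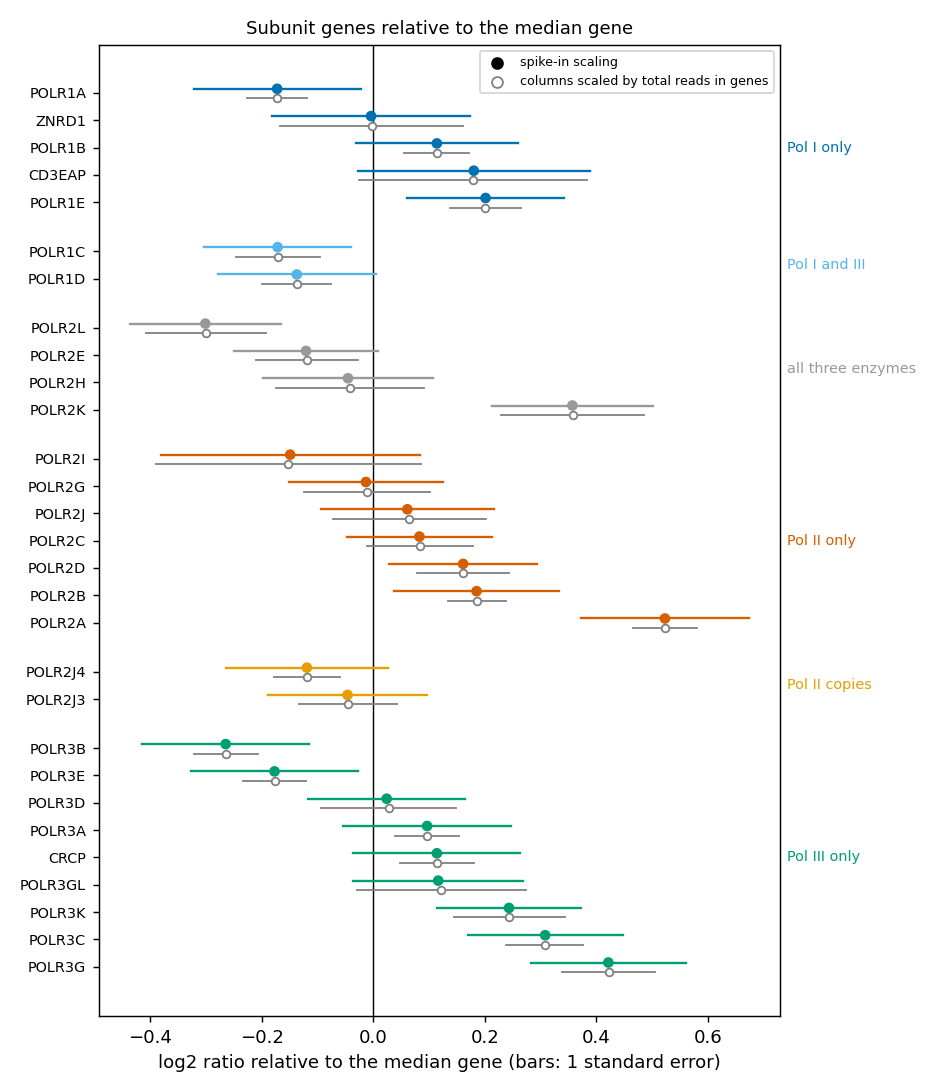
Log2 ratio of 29 members relative to the median gene, with bars of 1 standard error, from the fit with spike-in scaling (filled, upper point of each pair) and from the fit with columns scaled by total reads in genes (open, lower point). The values are nearly the same under both scalings, for example 0.52 for *POLR2A* in each, while the bars are mostly shorter under the second. This likeness of the values is built in, since a change of scaling shifts all genes by nearly the same amount and the recentring removes it.

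The dIWS1 columns ranked the members in a like order. Across the 30 members the log2 ratios of the columns had a Pearson correlation of 0.84 and a Spearman correlation of 0.81, against 0.88 and 0.86 over 8900 genes. Both ratios share the control column, so part of this likeness is built in. Column 1 was the lower of the pair in 25 of 30 members, with a median difference of −0.14. Across members the ratio bore little relation to the length of the gene (Pearson correlation with log10 span −0.03, n = 30) or to its depth (−0.00 with log10 control reads). The 13 members under 10 kb had a median ratio of −0.43, the 5 of 10 to 30 kb −0.26 and the 12 longer ones −0.44, beside −0.49, −0.38 and −0.42 for all genes of these lengths.

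Genes of factors that work with the polymerases are given beside the 64.5% of all genes called lower and their median of −0.43. Of 14 genes for Pol III initiation and its regulation, 10 were called lower and 0 higher, with a median of −0.51. The lowest were *SNAPC2* (−0.78, with 98 control reads) and *GTF3C1* (−0.69), and the highest *GTF3C6* (−0.21) and *SNAPC1* (−0.09). Both the lowest and the highest are subunits of the factors that bind snRNA-type promoters and internal promoters. Of 6 Pol I factors, 2 were called lower, *TAF1C* (−0.57) and *TAF1B* (−0.55) of the promoter factor SL1. The median of this list was −0.17. *RRN3*, which joins Pol I to the promoter, had a ratio of −0.11 and *TAF1A*, also of SL1, of −0.06, neither called. Of 8 assembly and import factors, 2 were called lower, *RPAP1* (−0.74) and *SLC7A6OS* (−0.33). Their median was −0.27, and the highest were *URI1* (−0.24) and *RPAP3* (−0.18), not called. *POLRMT*, the mitochondrial RNA polymerase, was called lower at −0.66 (adjusted p = 4.7e-06).

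Transcripts made by Pol III were also listed, 17 in all, of which 7 had at most 3 reads in every column and are given no fold change. Of the 17, 2 were called lower and 0 higher, against 64.5% and 0.109% of all genes. These were *RMRP* and *RNU6-1*, the latter with 2, 0 and 0 reads. The 17 had a median of 8 control reads, against 1082 for all genes. Their median standard error was 0.58, against 0.15, so the shares called cannot be compared directly. The 5 with at least 100 control reads, a limit chosen after the values were seen, all lay above the control in dIWS1 column 1 and below it in column 2. *RN7SK*, which holds the elongation factor P-TEFb inactive, had 4861 normalized reads in the control, 6613 in column 1 and 2924 in column 2. *RPPH1*, the RNA of RNase P, had 1712, 2341 and 1053, and *RN7SL1*, of the signal recognition particle, 1432, 2002 and 854.9. *RN7SL2* (1143, 1374 and 741.8) and *RMRP* (486.3, 506.4 and 279.5) followed the same pattern. The column 1 to column 2 differences of these 5 RNAs, from 0.86 to 1.23 on the log2 scale, were the highest of the 8900 genes with a mean of at least 100, and 0 of the 30 subunit genes reached them. The next highest were a snoRNA (0.76) and a histone gene (0.71) outside this list, with the same signs in the columns. The pooled ratios of the 5 RNAs average values of opposite sign, and the call of *RMRP* as lower (−0.36, adjusted p = 0.0107) rests on column 2, since its ratio was 0.06 in column 1.

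**Figure D4:**
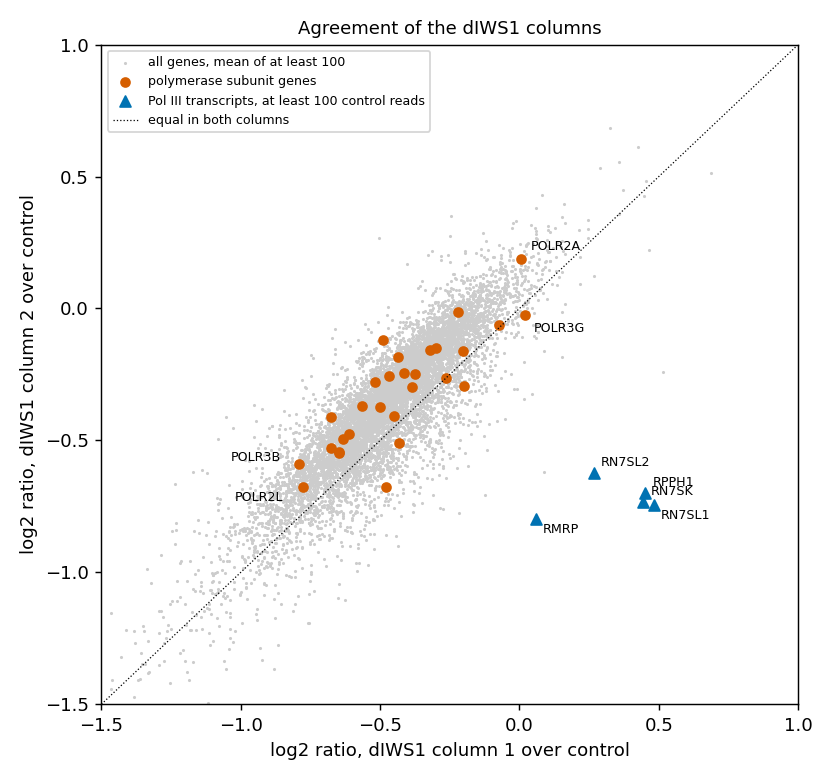
Log2 ratio over the control in dIWS1 column 1 (x axis) and column 2 (y axis) for the 8900 genes whose mean reached 100 normalized reads (grey, of which 31 lie outside the axes), 29 subunit genes (orange) and the 5 Pol III transcripts with at least 100 control reads (blue triangles). The subunit genes lie within the cloud of all genes, mostly above the line of equality. The 5 Pol III transcripts lie furthest below that line, above 0 in column 1 and below 0 in column 2.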

How the data were processed

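TT-seq was measured in 2 control and 2 dIWS1 samples. The authors aligned reads to GRCh38 with STAR 2.6.0 (submitters' processing notes), kept unique alignments, counted read pairs per RefSeq gene by strand, removed overlapping genes, and ran DESeq2 with spike-in size factors. The deposited signal is a mean over libraries of such size-factor-normalized counts. The deposited log2 fold change (dIWS1 over control, as the paper's legend defines it) served only to assign the recovered columns to groups and to split the means above 200. It is not printed, and the authors' standard errors, statistics and p-values were not used.

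Means were written as sums of whole multiples of 3 steps, 1 per column (10136 of 10136 genes had 1 solution, and 0 of 1000 shifted means had any). In 1248 genes split without the fold change, it matched columns 1 and 2 over the repeated column with a median distance of 0.0014, against 0.50 for mixed groups. Size factors were 1.01, 0.993 and 0.919. The control column entered 2 times was counted once. The dIWS1 columns carry no replicate number.

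The reads were fitted with limma 3.58.1 (voom, R 4.3.3) with library sizes set by the size factors, 2-sided, and tested against 0 and against the median gene. Column ratios used a pseudocount of 0.5. With 1 control and 2 dIWS1 columns, the only spread between samples is that between the dIWS1 columns. The fit pooled it over all genes as a trend on depth (infinite prior degrees of freedom), so p-values do not use a gene's own spread. The median standard error was 0.14 once the mean reached 100. Other scalings, filters, thresholds and a limma-trend fit were tried. Members and lists were chosen with earlier results of these data known, and all members may be named, except 1 that enters the counts and medians but is not reported here by name. Of each pathway list the lowest and highest genes are named. Positions are from RefSeq GRCh38.p14 (all 30 members matched, 2 by an older name), exon numbers from GENCODE release 44. The authors' RefSeq release is not given in the sources used here.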

Additional observations from a re-analysis of the deposited data

How the results depend on the processing

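No paired analysis was possible because there is only 1 control column and the columns carry no replicate numbers, so no fit with a replicate block was run. The alternative with the control column entered 2 times treats 1 sample as 2, with no spread between the copies. Its calls below therefore overstate the evidence. The members called lower numbered 18, and 14 and 15 with limma-trend at pseudocounts of 0.5 and 5, 18 with a minimum mean of 10 or of 100 normalized reads (with *POLR1B* in and *POLR2I* out at 100), 13 at an adjusted p under 0.01, 10 with a log2 ratio of at least 0.5 in size, 24 with the control column entered 2 times, and 15 without the *POLR2J* copies, an alternative added after the data were seen. The 2 members called higher relative to the median gene became 1 and 0 with limma-trend (pseudocounts of 0.5 and 5), 0 at the stricter threshold, 1 with the minimum change and 5 with the control entered 2 times, where 1 was also called lower. Of all genes, the 11 called higher became 26 and 17 with limma-trend, 6 at the stricter threshold, 4 with the minimum change and 61 with the control entered 2 times, and the 6539 called lower became 3755 with the minimum change.

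The scaling changed most results, by construction, since it moved the median of all genes from −0.43 to 0.02 with total reads. Recentred on the median gene, 0 members were called lower and 2 higher (484 and 305 of all genes). With total reads, 1 was called lower and 5 higher (1062 and 1471 of all genes), and against the median gene, added after the data were seen, 1 and 4. Recentring turned the medians of all members (0.043), Pol I (0.11), Pol II (0.083) and Pol III (0.11) above 0, and total reads did the same (0.063, 0.13, 0.10 and 0.12). Recentred, the log2 ratios that turned above 0 were *POLR3G* 0.42, *POLR2K* 0.36, *POLR3C* 0.31, *POLR3K* 0.24, *POLR1E* 0.20, *POLR2B* 0.19, *CD3EAP* 0.18, *POLR2D* 0.16, *POLR3GL* 0.12, *POLR1B* 0.11, *CRCP* 0.11, *POLR3A* 0.10, *POLR2C* 0.083, *POLR2J* 0.061, *POLR3D* 0.024. With total reads they were *POLR3G* 0.44, *POLR2K* 0.37, *POLR3C* 0.32, *POLR3K* 0.26, *POLR1E* 0.22, *POLR2B* 0.20, *CD3EAP* 0.20, *POLR2D* 0.18, *POLR3GL* 0.14, *CRCP* 0.13, *POLR1B* 0.13, *POLR3A* 0.11, *POLR2C* 0.10, *POLR2J* 0.081, *POLR3D* 0.044, *ZNRD1* 0.014, *POLR2G* 0.0052. With dIWS1 column 1 alone *POLR3G* turned to 0.020, and with column 2 alone it was −0.026. Over both columns taken alone, the median of all members ran from −0.46 to −0.30, and that of the Pol I genes from −0.37 to −0.29, of the Pol II genes from −0.38 to −0.26 and of the Pol III genes from −0.46 to −0.22. For the genes common to Pol I and Pol III it ran from −0.64 to −0.52, for those common to all enzymes from −0.62 to −0.39 and for the copies from −0.52 to −0.49. Limma-trend with a pseudocount of 5 changed no member's direction. The calls of *POLR2C*, *POLR2J* and *POLR3A* as lower were lost with limma-trend at both pseudocounts, and that of *ZNRD1* at 0.5. With 1 control column, the spread between controls is the main limit, and the genes with fewest reads have the widest intervals.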
